A study of Mus musculus with 2 samples.

Results

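The genes described here are 10 RNA-binding splicing regulators of neurons: *Nova1* and *Nova2*, *Rbfox1*, *Rbfox2* and *Rbfox3*, *Ptbp1* and *Ptbp2*, and *Elavl2*, *Elavl3* and *Elavl4*. They were taken by gene name, and they account for 10 of 51804 genes and 82 of 128603 transcripts in the RNA-Seq table. The experiment compared maternal *Mir125b-2* knockout mice (m-/p+), which lack the maternal copy of the microRNA gene and keep the paternal one, with wild-type mice (m+/p+), all C57BL/6 by the labels (C57BL/6J in the methods) and all at postnatal day 0. The deletion is a conventional one, present in every cell from the germ line on, and it removes the precursor of miR-125b-2. *Mir125b-1*, a separate gene that gives the same mature miR-125b-5p, was not deleted. Each genotype was sequenced as 1 library of equally pooled RNA from 6 animals. There is therefore no error between replicates, no test was made, and every difference is one between these 2 libraries. The labels give whole brain as the tissue but describe isolation of the hippocampus. The RNA-Seq methods of the paper name dissected brains and no region. Of 8 marker genes of brain regions outside the hippocampus, all were listed above 0, with a summed level of 39.9 FPKM in the knockout against 39.8 FPKM in wild type. Single markers differed in both directions, with log2 ratios of knockout over wild type from -0.63 for *Hoxb5*, a hindbrain and spinal cord gene, to 0.35 for *Six3*, a ventral forebrain gene. Values are FPKM, fragments per kilobase of transcript, scaled to the number of mapped fragments. Depth is unknown, because no read counts were used. A gene level is the sum over the transcripts of the gene, and all coordinates are those of GRCm38.

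These proteins choose which exons stay in an mRNA, and several also set its stability or translation. NOVA proteins bind YCAY elements and shape the splicing of synaptic transcripts, and RBFOX proteins bind the element GCAUG. Rbfox3 is the antigen NeuN, a marker of mature neurons. PTBP1 is made in neural progenitors and most other cells and represses neuronal exons, and its paralog PTBP2 takes over as neurons are born. One exon that PTBP1 represses lies in *Ptbp2* itself, and skipping it exposes the mRNA to nonsense-mediated decay (NMD). The neuronal ELAVL proteins (HuB, HuC and HuD) bind AU-rich sequences in introns and 3′UTRs. miR-125b is a brain-enriched microRNA that represses mRNAs through matches to its seed, bases 2 to 8.

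The microRNA is shown first because its seed defines the matches described for the regulators. The mature miR-125b-5p of RefSeq, at chr16:77646279-77646300 (GRCm38.p6, plus strand), is printed with the seed in capitals, and below it stands a match in the 3′UTR of *Nova2* at chr7:18961296-18961302 (plus strand), with the match in capitals. The site and the exons that follow were read from GENCODE M21 transcripts.
miR-125b-5p: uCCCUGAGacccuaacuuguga
Nova2 3′UTR site: tgacatgcccgtgttCTCAGGGatccattc

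The 34-base exons of *Ptbp1* and *Ptbp2* are shown because skipping either one leads to NMD, which couples the level of these proteins to their own splicing. They lie at chr10:79862014-79862047 (plus strand) and chr3:119724612-119724645 (minus strand). Capitals mark the exon and lower case the 20 exonic bases on each side. They are identical at 26 of 34 positions (76.5%).
Ptbp1 34-base exon: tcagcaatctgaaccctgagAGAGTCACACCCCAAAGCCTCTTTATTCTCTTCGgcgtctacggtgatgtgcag
Ptbp2 34-base exon: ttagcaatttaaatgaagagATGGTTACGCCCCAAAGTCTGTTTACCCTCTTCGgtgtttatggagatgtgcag

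The 78-base coding exon of *Ptbp1* at chr10:79860117-79860194 lies in the linker between the middle RNA-binding domains. In mammals its skipping is known to change how strongly the protein represses exons. It is shown because both forms of the mRNA were abundant here.
Ptbp1 78-base exon: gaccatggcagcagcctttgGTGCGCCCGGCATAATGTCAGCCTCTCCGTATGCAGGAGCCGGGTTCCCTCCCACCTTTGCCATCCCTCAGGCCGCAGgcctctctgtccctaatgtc

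The ELAVL proteins vary in the hinge before the last RNA-binding domain. A 39-base exon is optional in *Elavl2* (chr4:91254141-91254179) and *Elavl4* (chr4:110209740-110209778), and in *Elavl4* the next exon can start 42 bases earlier (chr4:110206660-110206701), all on the minus strand. The 39-base exons match at 33 of 39 positions (84.6%). Capitals mark the optional segment.
Elavl2 39-base exon: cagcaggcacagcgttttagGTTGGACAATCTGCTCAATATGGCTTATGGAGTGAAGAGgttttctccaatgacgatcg
Elavl4 39-base exon: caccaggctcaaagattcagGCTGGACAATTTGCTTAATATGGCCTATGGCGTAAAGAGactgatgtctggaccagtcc
Elavl4 42-base extension: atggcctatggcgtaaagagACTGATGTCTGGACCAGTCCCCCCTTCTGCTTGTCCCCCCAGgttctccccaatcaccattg

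At the gene level, none of the 10 regulators differed by 1.2-fold between maternal knockout and wild-type mice. Among 15686 genes with a mean of at least 1 FPKM, 9.71% were higher and 9.96% were lower past 1.2-fold in the knockout. All 10 regulators had higher levels than that minimum, and among 10340 genes with a mean of at least 5 FPKM the shares were 5.16% higher and 4.96% lower, so that a count of 0 of 10 is near the background. The median log2 ratio (knockout over wild type, after adding 0.1 FPKM to both) was -0.03 over the 10 genes and 0.004 over all genes. Of the regulators, 4 were above 0 and 6 below. Their order by level was the same in both libraries, with *Ptbp2* highest and *Nova2* lowest.

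The *Nova* genes encode the KH-domain regulators of synaptic exons. *Nova1* (chr12:46694517-46818929) had 32.6 FPKM in the knockout against 33.3 FPKM in wild type, for a log2 ratio of -0.03. *Nova2* (chr7:18925888-18965319), the form of cortical and hippocampal neurons, had 9.83 FPKM in the knockout against 11.7 FPKM in wild type. Its log2 ratio of -0.24 was the farthest from 0 of the 10 and lay just inside the 1.2-fold limit. Of 9481 protein-coding genes with a mean of at least 5 FPKM, 91.4% had a log2 ratio closer to 0. *Nova2* was listed as 1 transcript, so nothing can be said of its splicing.

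All 3 *Rbfox* genes were close to equal. *Rbfox1* (chr16:6809222-7412479) had 44.5 FPKM in the knockout against 45.6 FPKM in wild type. *Rbfox2* (chr15:77078990-77307053), the most abundant of the family, had 79.9 FPKM in the knockout against 84.2 FPKM in wild type, for a log2 ratio of -0.08. *Rbfox3* (chr11:118489762-118911597) was the least abundant, with 20.1 FPKM in the knockout against 19.9 FPKM in wild type. It made up 13.9% of the family sum in the knockout and 13.3% in wild type.

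*Ptbp2* far outweighed *Ptbp1* in both libraries. *Ptbp1* (chr10:79854427-79864771) had 20.5 FPKM in the knockout against 22.5 FPKM in wild type, for a log2 ratio of -0.13. *Ptbp2* (chr3:119718742-119784466) had 127 FPKM in the knockout against 121 FPKM in wild type, for a log2 ratio of 0.07. The ratio of *Ptbp2* to *Ptbp1* was 6.18 in the knockout and 5.39 in wild type. All 8 markers of neural progenitors and dividing cells, the cells in which *Ptbp1* is known to be high, were also lower in the knockout, and their sum was 191 FPKM in the knockout against 207 FPKM in wild type. None of the 8 was listed at 0, and their log2 ratios ran from -0.27 for *Hes5* to -0.05 for *Vim*. *Ptbp1* is not limited to these cells, and all 5 endothelial and pericyte markers were lower as well. Their sum was 77.7 FPKM in the knockout against 87.0 FPKM in wild type. All 5 astrocyte markers were also lower, with 673 FPKM in the knockout against 682 FPKM in wild type. Markers of the oligodendrocyte lineage went both ways, with 2 of 5 higher and 3 lower. Their sum was 79.0 FPKM in the knockout against 77.6 FPKM in wild type. Of 5 microglia markers, 2 were higher and 3 lower, with 24.17 FPKM in the knockout against 24.98 FPKM in wild type. Among all 15686 genes with a mean of at least 1 FPKM, 7656 had a log2 ratio below 0. None of these markers was listed at 0, and the part of any of these cells in the *Ptbp1* values was not tested. In bulk RNA, fewer cells of a type and less RNA per cell cannot be told apart.

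Of the *Elavl* genes, *Elavl2* (chr4:91250763-91400785) had the highest ratio of the 10 regulators, with 66.6 FPKM in the knockout against 60.3 FPKM in wild type, for a log2 ratio of 0.14. *Elavl3* (chr9:22015005-22052023) had 56.3 FPKM in the knockout against 59.7 FPKM in wild type. *Elavl4* (chr4:110203722-110351909) had 29.5 FPKM in the knockout against 29.4 FPKM in wild type, for a log2 ratio of 0.01 whose sign turned when the libraries were scaled to each other. The sum of the 3 genes was 152 FPKM in the knockout against 149 FPKM in wild type. The 8 neuronal markers summed to 2302 FPKM in the knockout against 2328 FPKM in wild type, with 5 above and 3 below a log2 ratio of 0.

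**Figure D1:**
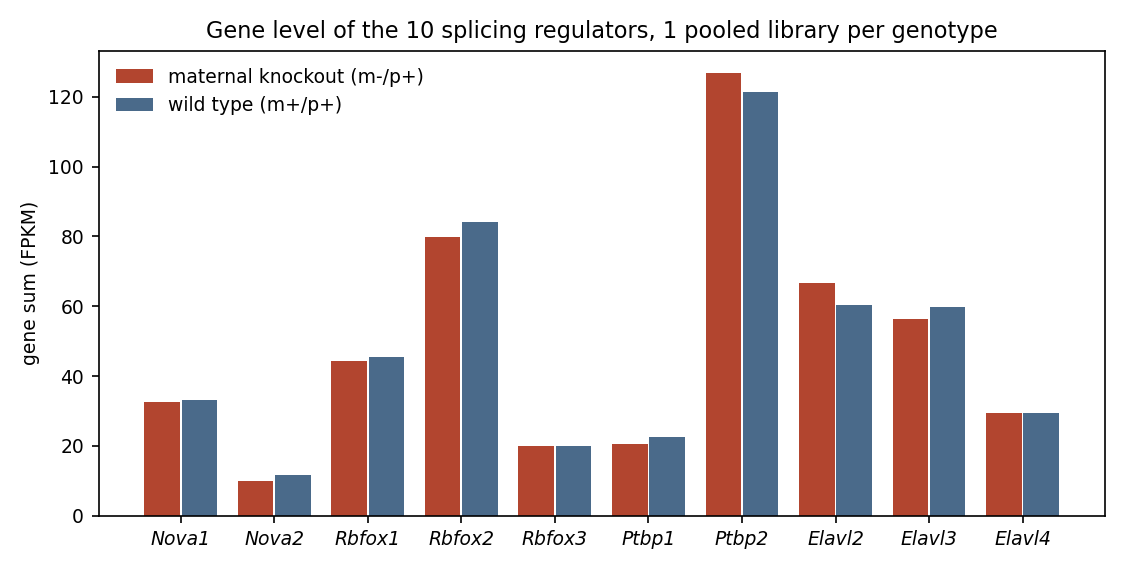
Gene sums in FPKM (vertical axis, from 0) of the 10 regulators, with the maternal knockout library left of the wild-type library for each gene; each bar is 1 pooled library, so there are no error bars. The paired bars are close in height for every gene, from *Nova2* at 9.83 and 11.7 FPKM to *Ptbp2* at 127 and 121 FPKM.

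**Figure D2:**
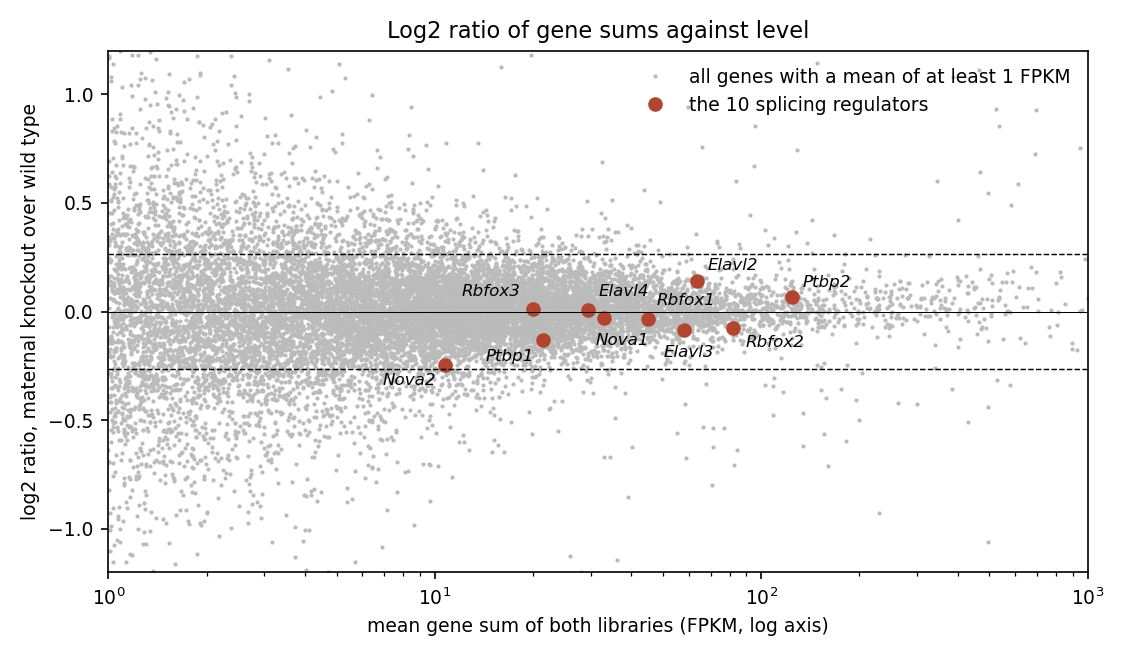
Log2 ratio of maternal knockout over wild type (vertical axis) against the mean gene sum in FPKM (horizontal log axis) for all genes with a mean of at least 1 FPKM (grey) and the 10 regulators (red); dashed lines mark 1.2-fold, and genes beyond the axes are not drawn. The regulators lie between the lines, with *Nova2* at -0.24 next to the lower one and *Elavl2* at 0.14 highest.

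Single transcripts differed more than the genes did, and those past 2-fold all had a mean below 5 FPKM. Some still formed a sizeable part of their gene, such as *Ptbp1-214* with 3.10% of the gene in the knockout and 11.9% in wild type. Of the 82 transcripts, 23 were listed at 0 in both libraries and 51 had a mean above 0.3 FPKM. Among these 51, 6 were above 2-fold in the knockout (11.8%) and 2 were below 0.5-fold (3.92%), against 9.43% and 8.93% of 50873 transcripts of all genes. None of the 21 transcripts of the regulators with a mean of at least 5 FPKM passed 2-fold, where 2.29% of all transcripts above 5 FPKM did. Between 1 and 5 FPKM, 5 of 22 passed, beside 12.1% of all transcripts in that range, and between 0.3 and 1 FPKM, 3 of 8 passed, beside 37.3%.

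Among the most abundant transcripts of the 10 genes, the ratio farthest from 1 was the 1.33 of *Elavl4-203*. *Nova1-201* had 24.5 FPKM in the knockout against 23.7 FPKM in wild type, and *Rbfox1-201* had 31.1 FPKM in the knockout against 31.4 FPKM in wild type. *Rbfox2-203* had 44.8 FPKM in the knockout against 51.7 FPKM in wild type, while *Rbfox2-201*, which starts farther upstream, had 35.0 FPKM in the knockout against 32.5 FPKM in wild type. These 2 forms of *Rbfox2* thus differed in opposite directions by small amounts. *Rbfox3-205* had 9.59 FPKM in the knockout against 9.51 FPKM in wild type. *Elavl2-208* had 23.1 FPKM in the knockout against 23.6 FPKM in wild type, and *Elavl3-201* had 50.3 FPKM in the knockout against 52.8 FPKM in wild type. The leading forms of *Ptbp1*, *Ptbp2* and *Elavl4* are given with their splicing.

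*Ptbp1* held 3 of the 8 transcripts past 2-fold, and all 3 are annotated as retaining an intron. *Ptbp1-205* had 2.18 FPKM in the knockout against 0.503 FPKM in wild type. *Ptbp1-204* had 1.98 FPKM in the knockout against 0.931 FPKM in wild type. *Ptbp1-214* went the other way, with 0.637 FPKM in the knockout against 2.68 FPKM in wild type. All 5 retained-intron transcripts of *Ptbp1* together had 8.19 FPKM (39.9% of the gene) in the knockout against 6.85 FPKM (30.4%) in wild type. Its protein-coding transcripts had 12.3 FPKM in the knockout against 15.7 FPKM in wild type, so that over protein-coding transcripts alone *Ptbp1* was lower by more than 1.2-fold, with a log2 ratio of -0.34. Under that setting 6.89% of 12458 genes with a mean of at least 1 FPKM, and 2.94% of 8648 with at least 5 FPKM, were lower past 1.2-fold. Both main coding forms were lower. *Ptbp1-206*, the most abundant, had 6.92 FPKM in the knockout against 8.30 FPKM in wild type, and *Ptbp1-216* had 5.42 FPKM in the knockout against 6.81 FPKM in wild type. The estimates of transcripts that overlap over most of their length share reads, and how the reads were divided between them cannot be checked from FPKM.

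The other transcripts past 2-fold with a mean of at least 1 FPKM were 1 each of *Ptbp2* and *Rbfox3*. *Ptbp2-206*, a 576-base transcript annotated for NMD, had 0.0870 FPKM in the knockout against 2.00 FPKM in wild type. *Rbfox3-208*, a 369-base transcript with no coding sequence, had 1.59 FPKM in the knockout against 0.638 FPKM in wild type. The remaining 3, named after their values were seen, were short forms of *Elavl2*. *Elavl2-212* had 1.22 FPKM in the knockout against 0.584 FPKM in wild type, *Elavl2-213* had 1.01 FPKM in the knockout, and *Elavl2-211* had 0.680 FPKM in the knockout, with both of these listed at 0 in wild type.

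**Figure D3:**
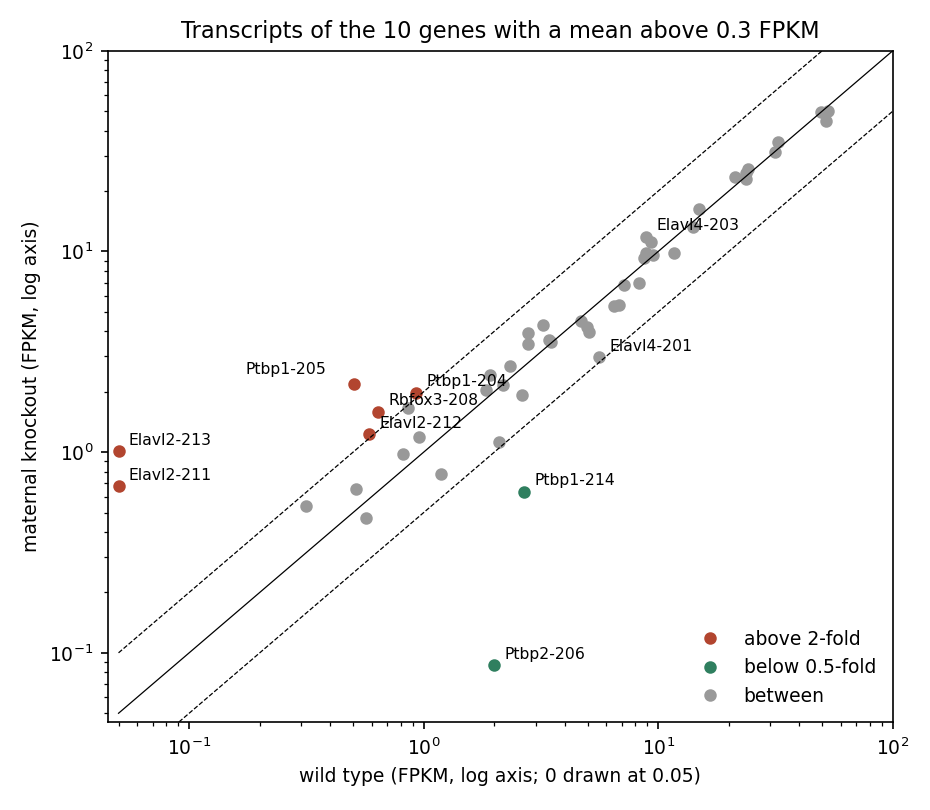
FPKM in maternal knockout (vertical log axis) against FPKM in wild type (horizontal log axis) for the 51 transcripts of the regulators with a mean above 0.3 FPKM; the solid line marks equality, the dashed lines mark 2-fold, and a value of 0 is drawn at 0.05. Transcripts above 5 FPKM follow the line of equality, and the 8 coloured points outside the dashed lines all lie below 3 FPKM in both libraries.

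The makeup of each gene was compared by its composition distance, the share of the gene sum that would have to move between transcripts to turn one library into the other. *Ptbp1* had a distance of 18.3%, larger than that of 88.7% of 8340 genes with a mean of at least 5 FPKM. Over its protein-coding transcripts alone, a comparison chosen after seeing the data, the distance was 3.51%, against a median of 4.52% over all genes. *Elavl4* had a distance of 11.7%, larger than that of 72.9% of genes, and all of it lay in protein-coding transcripts. The other genes with more than 1 transcript ran from 1.08% for *Rbfox1* to 7.12% for *Elavl2*. The median was 5.76% over the 9 regulators and 7.06% over all genes.

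Retained-intron transcripts also formed part of other regulators. They gave 15.6% of *Ptbp2* in the knockout and 15.1% in wild type, and 16.6% of *Elavl2* in the knockout and 17.2% in wild type. In *Nova1* they gave 12.2% in the knockout and 15.2% in wild type. *Ptbp1*, where the share was 39.9% in the knockout and 30.4% in wild type, thus had the largest share and the largest difference of the 4 genes with such transcripts. The 3 NMD transcripts of *Ptbp1* were listed at 0 in both libraries.

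**Figure D4:**
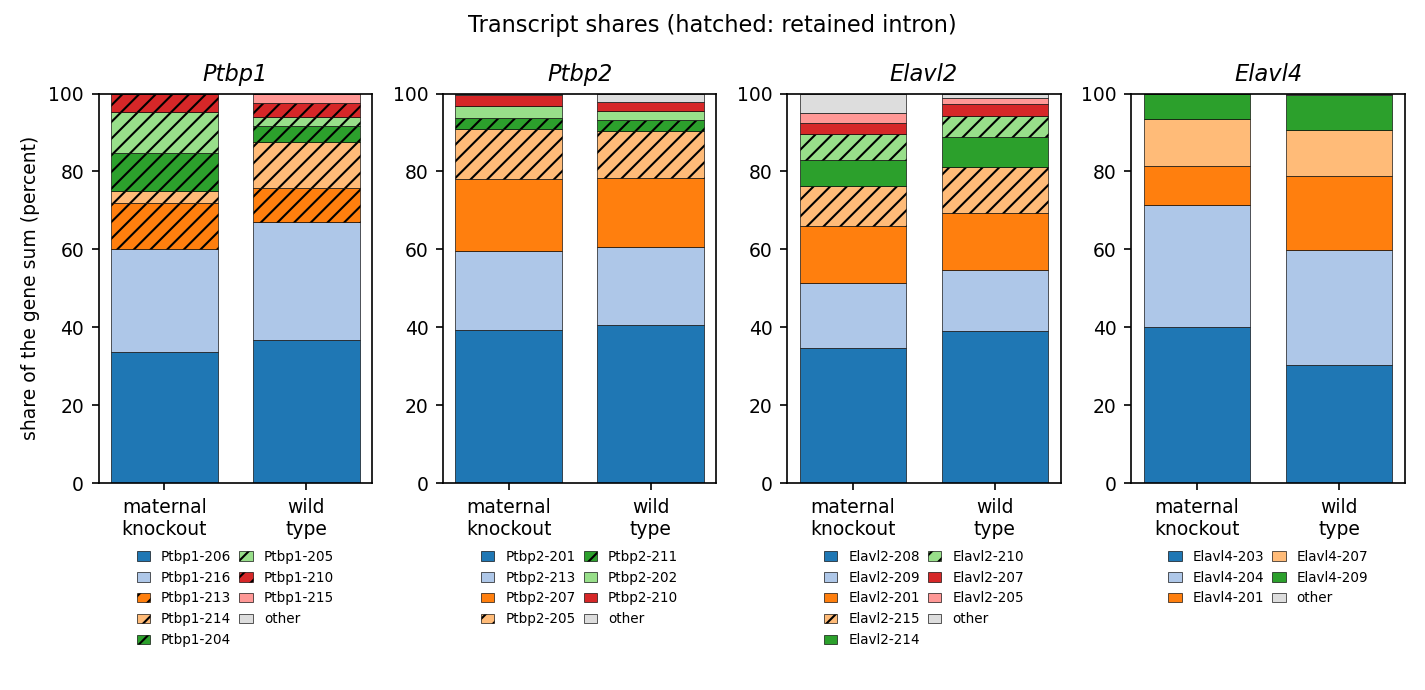
Share of the gene sum in percent (vertical axis) taken by each transcript of *Ptbp1*, *Ptbp2*, *Elavl2* and *Elavl4*, with the maternal knockout bar left of the wild-type bar; hatched segments are retained-intron transcripts and grey stands for transcripts under 2% in both libraries. In *Ptbp1* the hatched part takes 39.9% of the knockout bar and 30.4% of the wild-type bar, and in *Elavl4* the segment of *Elavl4-203* takes 40.1% of the knockout bar and 30.3% of the wild-type bar.

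Splicing of the regulators' own mRNAs was read as exon inclusion, the FPKM of transcripts with an exon as a share of those with or skipping it. Exons were taken for the 78 of 82 transcripts whose span in GENCODE M21 was that of the table, which left out 3 transcripts of *Rbfox2* and *Rbfox1-201*. Of 6 exons with at least 5% of each form, none differed by 10 points or more, where 18.2% of 6792 exons of all genes did. The 10-point limit was set after values had been seen. The median absolute difference was 1.58 points over the 6 exons and 4.20 points over all. Exons of all genes could have as little as 1 FPKM over both forms. The lowest of the 6 exons, in *Ptbp1*, had 7.60 FPKM with it and 6.92 FPKM without it in the knockout. The sets were thus not matched for level.

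The 39-base hinge exon was used nearly as often in both libraries. In *Elavl2* it was included in 92.3% in the knockout and 94.0% in wild type. In *Elavl4* it was included in 87.2% in the knockout and 86.9% in wild type. A 91-base exon of *Elavl2* (chr4:91311573-91311663), of which 72 bases code for protein, was included in 43.5% in the knockout and 45.6% in wild type. In *Rbfox3*, a 40-base exon ahead of the coding sequence was included in 45.8% in the knockout and 47.3% in wild type. A 65-base noncoding exon of *Nova1* was included in 8.59% in the knockout and 7.51% in wild type.

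The largest difference among the 6 was in the 78-base exon of *Ptbp1*, with 52.3% inclusion in the knockout and 46.8% in wild type. The difference of 5.48 points rested on the retained-intron transcript *Ptbp1-205*, which holds the exon. Over protein-coding transcripts alone, inclusion was 43.9% in the knockout and 45.1% in wild type, a difference of -1.17 points.

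The 34-base exons named above were included almost fully. In *Ptbp2* inclusion was 99.3% in the knockout and 96.7% in wild type. Transcripts that skip it had 0.555 FPKM in the knockout against 2.57 FPKM in wild type, and most of the wild-type value came from the 576-base *Ptbp2-206*. The other skipping transcript above 0, *Ptbp2-208*, had 0.468 FPKM in the knockout against 0.566 FPKM in wild type. The leading full-length form that holds the exon, *Ptbp2-201*, had 49.7 FPKM in the knockout against 49.4 FPKM in wild type. In *Ptbp1* no transcript skipping its 34-base exon was listed above 0, and those holding it had 14.5 FPKM in the knockout against 15.6 FPKM in wild type. A 72-base coding exon of *Nova1* (chr12:46713498-46713569) was included in 98.8% in the knockout and 99.7% in wild type. The exons in this paragraph had under 5% of the skipping form and were named after their values were seen.

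The start of the last coding exon of *Elavl4* differed more. Transcripts with the 42-base extension shown above made up 42.9% of those with either start in the knockout and 33.4% in wild type, a difference of 9.48 points, and this measure was also chosen after values had been seen. *Elavl4-203*, the most abundant form, which carries the extension, had 11.8 FPKM in the knockout against 8.91 FPKM in wild type. *Elavl4-201*, which starts at the same first exon but lacks the extension, had 2.96 FPKM in the knockout against 5.59 FPKM in wild type. These forms differ only in the extension, and how shared reads were divided between them cannot be checked from FPKM. For scale, inclusion differed by at least 10 points in 18.2% of exons of all genes. Those were exons kept or skipped whole, not exon starts, and could have as little as 1 FPKM over both forms. *Elavl4-204* and *Elavl4-207*, which lack the extension and start at other first exons, were nearly equal. *Elavl4-204* had 9.27 FPKM in the knockout against 8.67 FPKM in wild type, and *Elavl4-207* had 3.52 FPKM in the knockout against 3.49 FPKM in wild type.

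**Figure D5:**
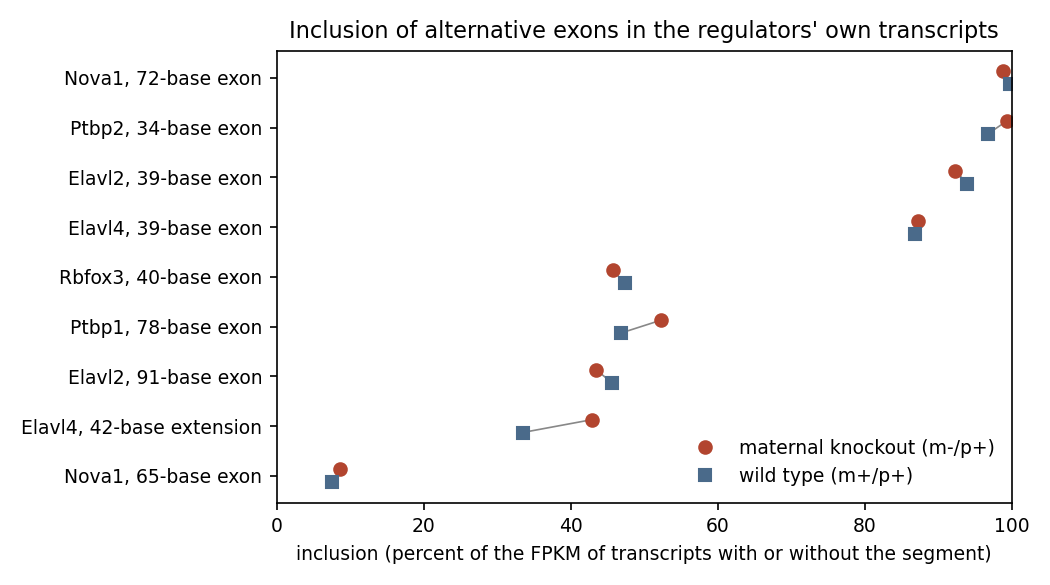
Inclusion in percent (horizontal axis) of optional segments in the regulators' transcripts, with maternal knockout (circles) above wild type (squares) in each row. The symbols of each row are close together, and the widest gaps are the 42-base extension of *Elavl4* at 42.9% and 33.4% and the 78-base exon of *Ptbp1* at 52.3% and 46.8%.

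Matches to the miR-125b-5p seed (CTCAGGG, read on the mRNA strand only) were counted in the annotated 3′UTR of the most abundant coding transcript of each gene among those with matching spans. *Nova2* had 1, printed above, in a 3′UTR of 6704 bases, and 38.5% of 3′UTRs of like length held one. The other 9 had none in that transcript, although for *Rbfox1* the search covered only 3 annotated bases. Over 11714 genes, 14.0% held a match. Rarer forms held some, namely *Elavl3-203*, with 5.35 FPKM in the knockout against 6.47 FPKM in wild type, and *Rbfox3-201* and *Rbfox3-206*, which together had 3.35 FPKM in the knockout against 3.14 FPKM in wild type. The match TCAGGGA, in which the bases before the last A pair with bases 2 to 7 of the microRNA, was added after the first search and overlaps it at CTCAGGGA. It occurred in 13.5% of genes, and among the regulators in *Nova2*, *Rbfox2* and *Elavl4*, where 43.0%, 36.5% and 24.6% of 3′UTRs of like length held it. The median log2 ratio was -0.01 over genes with a CTCAGGG match and 0.002 over those without. The targeted microRNA gene was listed at 0 in both libraries, which checks nothing, since RNA-Seq libraries of this kind are not made to capture small RNAs. Its host transcript *Mir99ahg* had 35.7 FPKM in the knockout against 28.1 FPKM in wild type.

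Most other splicing regulators were also close to equal. Of 45 listed, 40 had a mean of at least 1 FPKM, with a median log2 ratio of -0.0001. Past 1.2-fold, 2 of the 40 were higher and 1 was lower, beside 9.71% and 9.96% of all genes at that minimum. All of the 40 but *Hnrnpu* had a mean of at least 5 FPKM. At that level 1 was higher and 1 was lower, beside 5.16% and 4.96% of all genes, so the counts are near the background. *Hnrnpu*, a nuclear scaffold protein, had 3.77 FPKM in the knockout against 2.43 FPKM in wild type, but the difference lay in *Hnrnpu-208*, an NMD transcript of 511 bases with 1.61 FPKM in the knockout and listed at 0 in wild type. Its coding form *Hnrnpu-201* had 0.507 FPKM in the knockout against 0.517 FPKM in wild type. Whether *Hnrnpu* was fully quantified cannot be told from these values, so they do not show that its level in brain is low. *Srrm3*, an activator of neuronal microexons, had 20.4 FPKM in the knockout against 16.9 FPKM in wild type. *Raver1*, a partner of PTBP1, had 9.95 FPKM in the knockout against 8.44 FPKM in wild type. That sum is uncertain, because it joins overlapping gene models whose reads cannot be told apart, and *Raver1-201* itself had 5.70 FPKM in the knockout against 7.05 FPKM in wild type.

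The lowest ratios among the 40 belonged to CELF proteins, which bind GU-rich elements. *Celf5* had 30.6 FPKM in the knockout against 37.0 FPKM in wild type, past 1.2-fold. *Celf3* had 39.1 FPKM in the knockout against 44.3 FPKM in wild type, and *Celf6* had 12.8 FPKM in the knockout against 14.3 FPKM in wild type. *Celf2* and *Celf4* stood at 127 and 65.7 FPKM in the knockout, against 125 and 66.0 FPKM in wild type. *Celf1* was listed at 0 in both libraries over all 14 of its transcripts. These values cannot tell a gene that is not expressed from one that was not quantified. *Elavl1* (HuR), the relative of the neuronal ELAVL genes made in most cells, had 25.9 FPKM in the knockout against 27.8 FPKM in wild type, and *Ptbp3* had 10.3 FPKM in the knockout against 11.0 FPKM in wild type.

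Genes known as targets of the regulators were read from a list of 25. None of the 25 was past 1.2-fold, beside 5.16% higher and 4.96% lower among all genes with a mean of at least 5 FPKM. All but *Bdnf* had at least 5 FPKM, and at those shares a list of this size holds few such genes. The 0 is therefore near the background. The median log2 ratio of the 25 was 0.01. Composition distance had a median of 5.34% over the 23 targets with more than 1 transcript and a mean of at least 5 FPKM. The median over all genes was 7.06%. The lowest ratios belonged to PTBP targets. *Dlg4*, which encodes the synaptic scaffold PSD-95, had 49.8 FPKM in the knockout against 56.5 FPKM in wild type. *Src*, whose neuronal exon PTBP1 represses, had 26.2 FPKM in the knockout against 29.0 FPKM in wild type. Its makeup differed far more than its sum, with a composition distance of 38.6%, the largest of those 23 targets. The median distance over the 8 PTBP targets was 5.91%. Whether inclusion of the neuronal exon of *Src* differed was not tested. *Tpm1*, a tropomyosin, had 36.8 FPKM in the knockout against 40.1 FPKM in wild type. The 8 PTBP targets, *Ptbp2* among them, nonetheless had a median log2 ratio of 0.01.

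The highest ratios were small as well. *Bdnf*, a growth factor whose mRNA ELAVL proteins bind, had 2.21 FPKM in the knockout against 1.94 FPKM in wild type. *Gphn*, a scaffold of inhibitory synapses and a NOVA target, had 22.4 FPKM in the knockout against 20.3 FPKM in wild type. *Nf1*, a Ras inhibitor with an exon that ELAVL proteins regulate, had 30.8 FPKM in the knockout against 28.0 FPKM in wild type. The median log2 ratio was -0.01 over the 7 NOVA targets, 0.01 over the 5 RBFOX targets and 0.05 over the 5 ELAVL targets.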

How the data were processed

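RNA was pooled by the authors from 6 animals per genotype, depleted of ribosomal RNA and made into strand-specific libraries. Per the labels, reads were trimmed with Trimmomatic 0.36 and aligned to GRCm38.p5 with HISAT2 2.1.0. The authors deposited FPKM per Ensembl transcript from Cuffdiff, whose version is not given in the sources used here, with 1e-05 in place of 0, which was read as 0. Their own ratios and p-values were not used.

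FPKM were summed by gene name with python 3.11.15 and pandas 2.3.3. Ratios above 2 or below 0.5 were counted for transcripts with a mean above 0.3 FPKM, a minimum that treats both libraries alike. A transcript could still pass it through a single library. *Elavl2-211* and *Elavl2-213* did so through the knockout, and *Ptbp2-206* through wild type. GENCODE M21 (GRCm38) gave transcript types for all 82 transcripts, and exons and 3′UTRs for the 78 with the same span. Calculations were tested on simulated data. The members, gene lists and measures were chosen with earlier results of these data known. Named genes were all 10 members, the 3 highest and 3 lowest ratios of each list, transcripts past 2-fold with a mean of at least 1 FPKM and each gene's most abundant transcript, with up to 2 exons per gene. Others were named after their values were seen. Alternatives changed the pseudocount, scaling, minimum and transcript set.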

Additional observations from a re-analysis of the deposited data

How the results depend on the processing

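No paired analysis was possible because only 1 library stood for each genotype, and none could be left out. The count of regulators past 1.2-fold was 1, *Ptbp1* at a log2 ratio of -0.34, with protein-coding transcripts only, and 0 under the other alternatives. *Nova1* and *Rbfox3* changed sign with protein-coding transcripts only, and *Elavl4* under both scalings, all within 0.06 of 0. The inclusion difference of the 78-base exon of *Ptbp1* was -1.17 points with protein-coding transcripts only, an alternative chosen after seeing the data. Regulator transcripts above 2-fold numbered 3 at a minimum of 1 FPKM on the mean (4.73% of all transcripts), 10 of 59 with no minimum (18.5%), 1 among protein-coding transcripts (7.75%), 4 with the minimum on wild-type values alone (4.16%) and 8 with it on knockout values alone (13.8%). Those below 0.5-fold numbered 2 (3.86%), 5 (19.2%), 0 (7.31%), 3 (13.6%) and 1 (3.70%) in that order. Of the other splicing regulators, 1 was higher past 1.2-fold with a pseudocount of 1 FPKM and under either scaling. The count was also 1 at a minimum of 5 FPKM (5.16% of all genes), and 0 with protein-coding transcripts only. Lower past 1.2-fold were 0 with a pseudocount of 1 FPKM and 3 with no minimum. Apart from the minimum of 5 FPKM, these counts of other splicing regulators are not set against a share over all genes. The scalings divided knockout values by 1.005 and 1.007. All other values kept their direction or moved by less than the spread over all genes. Unknown depth limits what can be read from transcripts under about 1 FPKM.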
